A study of Rattus norvegicus with 69 samples.

Results

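Antioxidant enzymes were followed in the CA1 region of the hippocampus of sleep-deprived rats through 10 genes: Sod3, Cat, Gpx1, Prdx1, Prdx6, Txn2, Selenop, Hmox1, Hmox2 and Nqo1. Every probe set that the array's annotation assigns to one of these symbols was taken, which gave 21 of the 8740 probe sets that are not controls, for 10 of the 4736 genes named there. All 10 genes matched a RefSeq gene by gene number. The rule takes the genes by symbol and uses no measured value, but the list was drawn up with earlier results of these data known.

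Superoxide and hydrogen peroxide are by-products of oxidative metabolism. Superoxide dismutases turn superoxide into hydrogen peroxide. Catalase splits hydrogen peroxide, while glutathione peroxidases and peroxiredoxins remove it with electrons from glutathione or thioredoxin. Selenium is needed for glutathione peroxidase, and several of these genes are induced by the transcription factor Nrf2 through a DNA motif called the antioxidant response element.

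The 69 animals were young adult male Fisher 344 rats with 1 array each. Animals of 24SD (16) and 72SD (20) spent 24 or 72 hours in pairs on small platforms over water, which is meant to deprive them of sleep. Animals of 24NES (10) and 72NES (6) spent the same times in that chamber with a grid laid over the platforms, on which they could sleep. NES was thus meant to carry the new surroundings without the enforced wakefulness. The study's methods describe no recording of sleep. HC animals (17) stayed in the home cage. Cohort 1 held 8 24SD, 8 72SD, 10 24NES, 6 72NES and 5 HC animals, and cohort 2 held 8 24SD, 12 72SD and 12 HC animals and no NES. The study's methods name the SD and HC animals of cohort 1, but not those of NES or cohort 2, as trained on an avoidance task beforehand. Rats were kept in pairs in the chamber, the labels name no pairs, and every p below takes the rats as independent of each other. SD and NES of cohort 1 were set against the same 5 HC arrays, so these comparisons are not independent of each other.

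The medians of the arrays' signals lay between 400.5 and 484.9, and their trimmed means were all 1502, which shows scaling of each array as a whole. The ratio of 3′ to 5′ GAPDH signal, a measure of RNA integrity, lay between 0.92 and 1.26 and was highest on 72NES array 71 (1.26), 24SD array 30 of cohort 2 (1.18) and HC array 3 of cohort 1 (1.18). Of the 7 pyramidal cell markers measured, Nrgn, Hpca, Pcp4 and Camk2a were above the median brightness of the array, with geometric means of 17326 or more for Nrgn, 21619 for Hpca and 4357 for Pcp4, as was 1 of the 2 probe sets of Grin2a, while Slc17a7 (20.9) and Nptxr (133) were dim. The summed signal of 7 CA1 markers had a median of 44263 in 24SD, 47465 in 72SD and 50374 in HC of cohort 2, against 61405 to 63186 in SD and 62561 in HC of cohort 1, so that every median of cohort 2 was the lower. The ranges of the cohorts did not overlap in 24SD or 72SD and overlapped in HC. Choroid plexus markers summed to 37839 on 24SD array 32 of cohort 2 and to at most 10322 on the other arrays. Since RNA came from whole CA1 blocks, fewer cells of a type and less RNA per cell cannot be told apart.

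The promoter windows of RefSeq (rat assembly GRCr8), which run from 250 bases before to 50 bases after a gene's start, were matched for 7 of the 10 genes, all but Hmox1, Prdx6 and Sod3. Selenop and Hmox2 have 2 windows each, so that 9 were searched on both strands for the antioxidant response element core TGACNNNGC. The 2 stretches that hold it are printed 5′ to 3′ on the strand of the gene, with the match in capitals, because this is the motif that ties such genes to Nrf2. The first lies at chr5:135383746-135383804 (plus strand), with the match starting 135 bases before the Prdx1 start. The second lies at chr10:11337674-11337732 (minus strand), with the match starting 95 bases before an Hmox2 start.
Prdx1: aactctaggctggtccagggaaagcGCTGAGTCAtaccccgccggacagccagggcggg
Hmox2: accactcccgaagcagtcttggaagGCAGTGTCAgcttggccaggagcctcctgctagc
Both matches read TGACNNNGC on the opposite strand. The Prdx1 match contains TGAGTCA, the AP-1 motif, within the same letters. The core stands in 12.1% of 33469 rat promoter windows, and the 2 matches are a description of these windows. Gpx1 held the E-box CACGTG of the circadian clock factors 5 bases after its start, a motif found in 6.42% of windows. None of the 9 windows held the full palindrome of the glucocorticoid response element, which is found in 0.0149% of windows.

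No antioxidant gene rose or fell with sleep deprivation or novelty stress at an adjusted p under 0.05 (limma, Benjamini-Hochberg over 8740 probe sets). For SD against HC, over both durations with cohort in the model, 0 of 21 probe sets were called, where 0.114% of all probe sets were. Without adjustment, 5 of 21 had p under 0.05 and all 5 were higher in SD, where 10.3% of all probe sets had such a p. The 5 were Selenop, 2 probe sets of Prdx6, 1 of Hmox2 and the dim one of Sod3. The median log2 difference was 0.097 over the 21 probe sets and -0.022 over all 8740, with 15 member probe sets higher and 6 lower in SD. For 24SD against HC 0 of 21 were called (0.206% of all) and 6 had an unadjusted p under 0.05 (14.8% of all). For 72SD against HC 0 were called (0.0229% of all) and 3 had such a p (7.16% of all). Between 72SD and 24SD 0 were called, as was 0% of all probe sets, and 0 had an unadjusted p under 0.05 (4.11% of all). In data simulated for SD against HC, the test recovered 38% of the genes given a log2 change of 0.25 and 94% of those given 0.5. These changes were equal at both durations, with independent noise, and were given only to probe sets above the median brightness. More probe sets were changed there than were called here, which loosens the adjusted cut, so recovery in the real data may be lower. Recovery for dim probe sets was not simulated.

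The counts for novelty stress follow the same form. For NES against HC 0 of 21 probe sets were called, as was 0% of all, and 3 had an unadjusted p under 0.05, where 8.63% of all did. These were Selenop and Hmox1 (rc_AI179610_at), both higher in NES, and Hmox2 (U05013_at), lower in NES. The median log2 difference over the 21 was 0.097, against -0.0042 over all probe sets, with 14 higher and 7 lower in NES. For 24NES 0 were called (0.0114% of all) and 4 had an unadjusted p under 0.05 (10.7% of all). For 72NES 0 were called (0% of all) and 2 had such a p (5.03% of all). Between 72NES and 24NES 0 were called (0% of all) and 1 had such a p (7.46% of all), Prdx6 Y17295cds_s_at. The NES groups were small. In data simulated for NES against HC, with the same limits as for SD, the test recovered 1% of the genes given a change of 0.25 and 36% of those given 0.5. The difference between SD and NES was tested directly in cohort 1. For 24SD against 24NES 0 members were called (0.0114% of all) and 2 had an unadjusted p under 0.05 (5.97% of all), and for 72SD against 72NES 0 were called (0% of all) and 2 had such a p (6.69% of all). Groups without any overlap of arrays were found for 0 members in 72SD against 72NES (0.0801% of all), in 24SD against 24NES (0.0114% of all), and in 72SD (0.503% of all) and 24NES (0.515% of all) against HC of cohort 1.

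**Figure D1:**
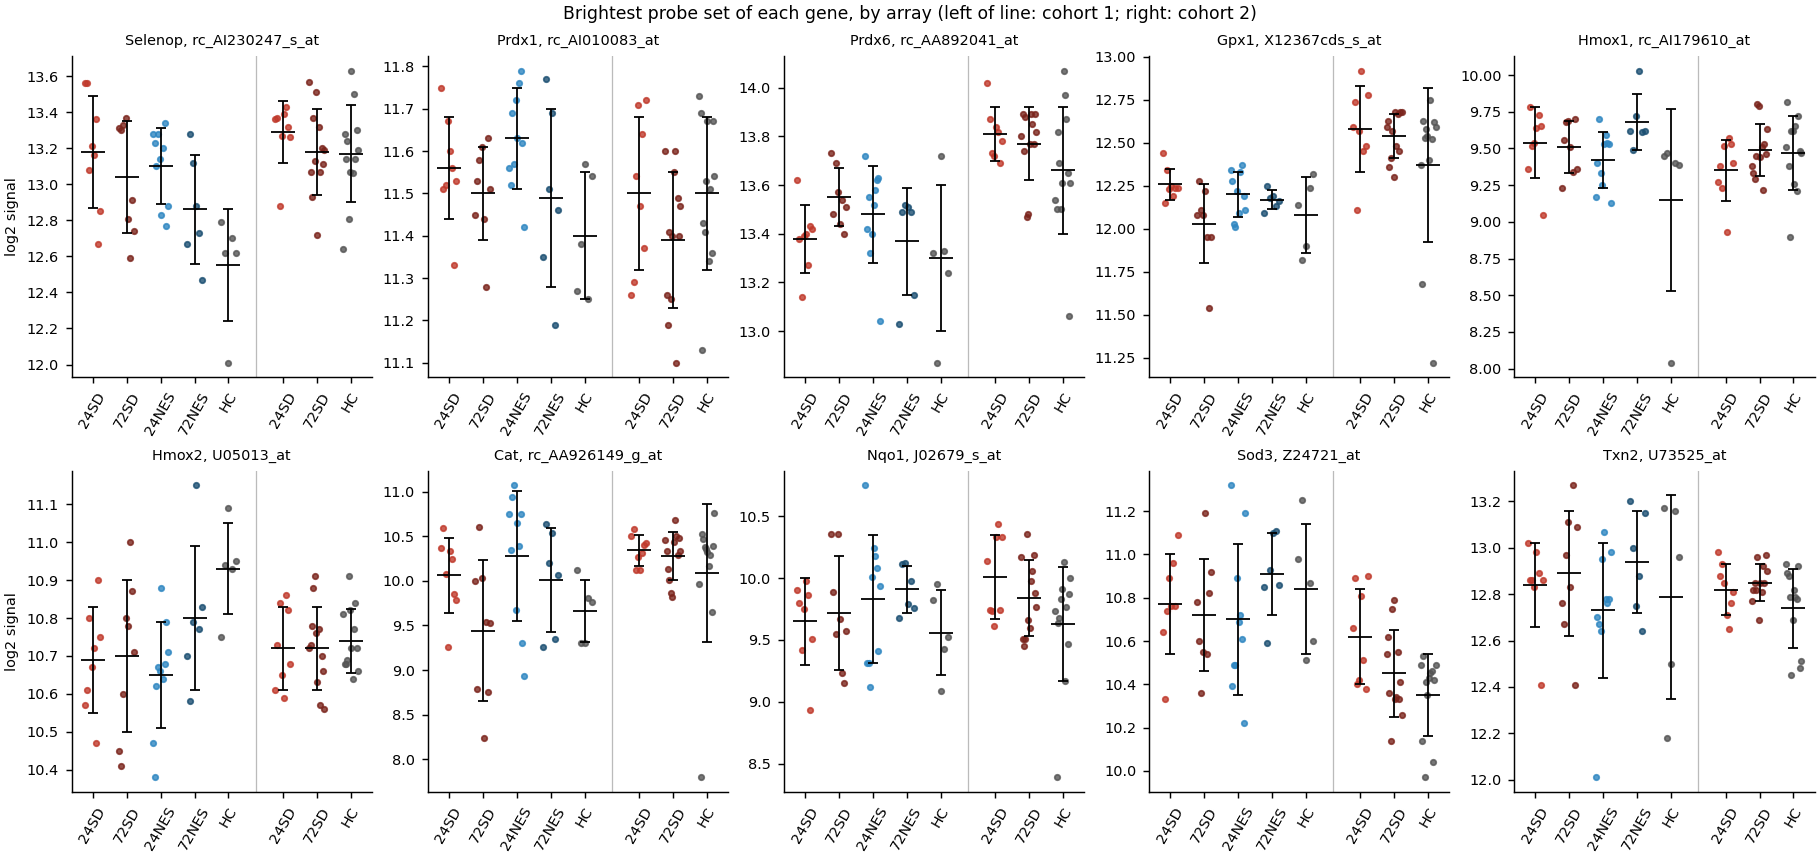
Log2 signal (vertical axes) of the brightest probe set of each of the 10 genes on every array, by group, with cohort 1 left and cohort 2 right of the grey line. Points are animals and bars are the mean ± SD; the groups overlap in nearly every panel, and the HC arrays of cohort 1 include 1 low array for Selenop (12.01) and for Hmox1 (8.04).

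The extracellular superoxide dismutase Sod3 had its clearest values in cohort 2. Its brighter probe set Z24721_at had a lowest, median and highest log2 signal of 10.38, 10.59 and 10.90 in the 8 24SD arrays of cohort 2, 10.14, 10.38 and 10.79 in the 12 72SD arrays, and 9.97, 10.42 and 10.53 in the 12 HC arrays. Of the 24SD arrays, 4 lay above every HC array, and the others lay within the HC range. Among the 4 was array 32 (10.81), which had the high choroid plexus markers. Of the 72SD arrays, 5 lay above every HC array. The difference for 24SD was 0.27 ± 0.094 (SE) in cohort 2 alone (p = 0.00635, adjusted p = 0.417, limma) and -0.071 ± 0.15 in cohort 1 alone. That the 24 and 72 hour changes differed between the cohorts was not called (adjusted p = 0.859, limma). The dim probe set X68041cds_s_at, with a geometric mean signal of 117, had 0.43 ± 0.17 for 24SD in both cohorts (p = 0.0121, adjusted p = 0.213, limma). It had its highest value, 8.65, on the 24SD array with high choroid plexus markers, and the difference was 0.32 ± 0.15 without that array. In NES the Z24721_at differences were -0.14 ± 0.17 at 24 hours and 0.066 ± 0.18 at 72 hours.

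Catalase (Cat), the peroxisomal enzyme that splits hydrogen peroxide, varied more within groups than between them. The probe set rc_AA926149_g_at ran from 8.24 to 10.60 in 72SD and from 9.26 to 10.59 in 24SD of cohort 1, against 9.30, 9.30, 9.76, 9.81 and 10.12 in the 5 HC arrays. In cohort 2 it ran from 10.12 to 10.58 in 24SD and from 9.82 to 10.68 in 72SD, against 7.80 to 10.76 in HC. The 7.80 belongs to HC array 6, which also had the lowest Nqo1 signal. The difference was 0.35 ± 0.19 for 24SD and 0.036 ± 0.18 for 72SD, and without array 6 it was 0.22 ± 0.15 and -0.10 ± 0.14. The probe set M11670_at did not share the 24SD difference, with -0.0066 ± 0.11. The dim probe set rc_AA926149_at differed by -0.11 ± 0.38 for 24SD. In 24NES the 2 brighter probe sets had 0.62 ± 0.33 and 0.45 ± 0.21 (M11670_at, p = 0.0463, adjusted p = 0.453, limma). For M11670_at, 6 of the 10 24NES arrays lay above every HC array of cohort 1. The direct difference between 24SD and 24NES for this probe set was -0.35, with a 95% interval from -0.69 to -0.0043 (p = 0.0473, adjusted p = 0.824, limma).

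Gpx1, the selenium-dependent peroxidase that uses glutathione, had a mean difference above 0 in SD over both cohorts for each of its bright probe sets. X12367cds_s_at differed by 0.21 ± 0.096 for 24SD (p = 0.0300, adjusted p = 0.283, limma) and 0.092 ± 0.090 for 72SD. X07365_s_at differed by 0.14 ± 0.083 for 24SD and 0.17 ± 0.077 for 72SD (p = 0.0345, adjusted p = 0.663, limma). In cohort 1 its log2 signals were 11.47 to 12.05 in 72SD with a median of 11.78, against 11.12, 11.21, 11.23, 11.39 and 11.72 in HC. Of the 8 72SD arrays, 5 lay above every HC array, and the difference in cohort 1 alone was 0.40 ± 0.12 (p = 0.00241, adjusted p = 0.293, limma). In cohort 2 it was 0.044 ± 0.099. X12367cds_s_at did not share the cohort 1 difference, with -0.057 ± 0.11 for 72SD, 3 of 8 arrays above the HC mean and 1 below every HC array. In 72NES the X07365_s_at values were 11.22, 11.52, 11.82, 11.84, 11.91 and 12.10, a difference of 0.40 ± 0.16 against the same HC arrays. On X07365_s_at 72SD and 72NES differed by -0.00015 with an interval from -0.26 to 0.26. The 72NES difference of X12367cds_s_at from HC was 0.083. For X12367cds_s_at the HC array 14 of cohort 2 was low (11.22), and without it the differences were 0.15 ± 0.077 for 24SD and 0.021 ± 0.072 for 72SD. The dim probe set M21210_i_at differed by -0.039 ± 0.063 for 24SD.

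The peroxiredoxins reduce peroxides through a reactive cysteine. Prdx1, a cytosolic member fed by thioredoxin, kept within narrow limits, with group means of 11.39 to 11.63 over the 8 groups by cohort. Its differences were 0.049 ± 0.059 for 24SD and -0.040 ± 0.055 for 72SD, so that 95% intervals ended at 0.17 and 0.071. In 24NES the values ran from 11.42 to 11.79 with a median of 11.62, against 11.25, 11.27, 11.38, 11.54 and 11.57 in HC of cohort 1. All 10 lay above the HC mean and 7 above every HC array, with a difference of 0.22 ± 0.099 (p = 0.0336, adjusted p = 0.418, limma). Between 24SD and 24NES Prdx1 differed by -0.068, with an interval from -0.22 to 0.082.

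Prdx6, an atypical member that uses glutathione and is made mainly by astrocytes in the brain, has 3 bright probe sets. For 72SD they differed from HC by 0.16 ± 0.064 (rc_AA892041_at, p = 0.0140, adjusted p = 0.558), 0.15 ± 0.061 (AF014009_at, p = 0.0171, adjusted p = 0.581) and 0.047 ± 0.052 (Y17295cds_s_at) in limma. On rc_AA892041_at, 18 of 20 72SD arrays and 14 of 16 24SD arrays lay above the HC mean of their cohort. In NES the probe sets had both signs at 72 hours, with 0.068 ± 0.15 for rc_AA892041_at, -0.17 ± 0.13 for Y17295cds_s_at and -0.23 ± 0.18 for AF014009_at. The Y17295cds_s_at values in cohort 1 ran from 11.68 to 12.16 with a median of 11.98 in 72SD, against 11.22, 11.34, 11.72, 11.81, 11.91 and 12.00 in 72NES. The AF014009_at values ran from 11.23 to 11.73 with a median of 11.53 in 72SD, against 10.73, 10.94, 11.16, 11.16, 11.24 and 11.49 in 72NES. Both sets of arrays overlapped, and 72SD stood higher by 0.31 ± 0.10 (Y17295cds_s_at, p = 0.00480, adjusted p = 0.688, limma) and 0.38 ± 0.14 (AF014009_at, p = 0.0117, adjusted p = 0.699, limma), neither of which was called, while rc_AA892041_at differed by 0.18 ± 0.11. Without 72NES array 71, the array with the highest GAPDH ratio, these were 0.22 and 0.30. Of 19 probe sets of 8 astrocyte marker genes, 17 were higher in 72SD than in 72NES and 6 had an unadjusted p under 0.05. Of 14 probe sets of 6 general neuron genes, 12 were higher and 6 had such a p. Over all 8740 probe sets 6.69% had such a p, and the median log2 difference was -0.0092. The astrocyte sum ran from 107770 to 131216 in 72SD and from 105823 to 133388 in 72NES, with all 8 genes above 0 in signal, and the part of these markers in the Prdx6 values was not tested.

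Txn2, the mitochondrial thioredoxin that feeds peroxide removal in that organelle, differed by 0.065 ± 0.073 for 24SD and 0.10 ± 0.068 for 72SD. Its groups were among the tightest in cohort 2, where 72SD had a mean of 12.85 ± 0.079 (SD, n = 12) and HC 12.74 ± 0.17 (SD, n = 12). In cohort 1 the HC arrays spread over 12.18, 12.50, 12.96, 13.16 and 13.17, and the differences for 24NES and 72NES were -0.059 ± 0.17 and 0.14 ± 0.19.

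Selenop, the secreted protein that carries selenium to the brain, had the smallest p among the members for SD against HC and for NES against HC. In cohort 1 the log2 signals of rc_AI230247_s_at ran from 12.67 to 13.56 with a median of 13.18 in 24SD, from 12.59 to 13.37 with a median of 13.10 in 72SD, from 12.77 to 13.34 with a median of 13.17 in 24NES, and were 12.47, 12.67, 12.73, 12.88, 13.12 and 13.28 in 72NES. The 5 HC arrays had 12.01, 12.62, 12.62, 12.70 and 12.79. Thus 7 of 8 24SD, 6 of 8 72SD, 9 of 10 24NES and 3 of 6 72NES arrays lay above every HC array. In cohort 2 the groups overlapped, with medians of 13.34 in 24SD, 13.16 in 72SD and 13.17 in HC, and 7 of 8 24SD and 6 of 12 72SD arrays lay above the HC mean but none above every HC array. With both cohorts, 24SD differed from HC by 0.30 ± 0.10 and 72SD by 0.17 ± 0.095 (p = 0.0160 for both durations together, adjusted p = 0.364, limma). In cohort 1 alone these were 0.63 ± 0.18 and 0.50 ± 0.18, and in cohort 2 alone 0.12 ± 0.11 and 0.014 ± 0.098. The change in cohort 1 exceeded that in cohort 2 by 0.52 ± 0.20 at 24 hours and 0.48 ± 0.19 at 72 hours (p = 0.0186, adjusted p = 0.600, limma).

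For novelty stress, Selenop differed by 0.56 ± 0.15 in 24NES and 0.31 ± 0.16 in 72NES (p = 0.00390 together, adjusted p = 0.344, limma), and 24NES alone had an adjusted p of 0.163 (limma). HC array 3, with the 12.01, also had a high GAPDH ratio. Without it 24NES differed by 0.42 ± 0.14, 72NES by 0.18 ± 0.15 and 24SD over both cohorts by 0.24 ± 0.095. Between SD and NES at the same duration Selenop differed by 0.076, with an interval from -0.20 to 0.35, at 24 hours and by 0.18, with an interval from -0.13 to 0.50, at 72 hours. Selenop is also made in choroid plexus, and 24SD array 32 of cohort 2, with the high choroid plexus markers, had 13.39 within the range of its group, which without it gave 0.30 ± 0.10 for 24SD. The dim probe set M63574_at, with a geometric mean signal of 75.9, differed by -0.023 ± 0.31 for 24SD and -0.068 ± 0.62 for 24NES.

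**Figure D2:**
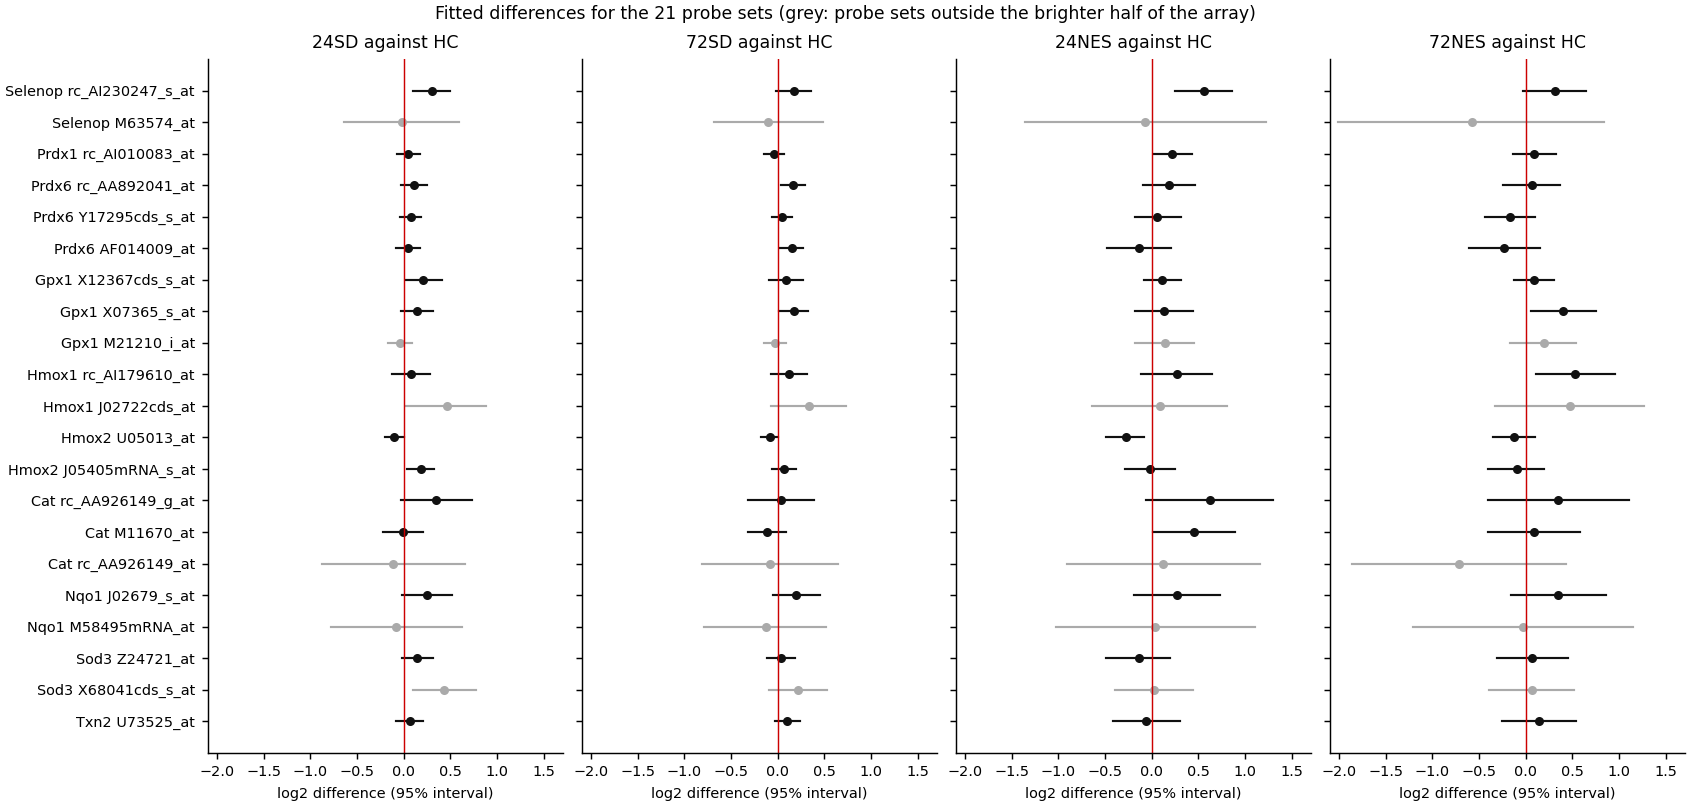
Fitted log2 differences from HC (horizontal axis; points, with 95% intervals as lines) for the 21 probe sets in 24SD, 72SD, 24NES and 72NES. Grey marks the 6 dim probe sets, with a geometric mean signal under 443; Selenop at 24 hours of NES (0.56) lies farthest from 0 relative to its interval among the black points, and none of the differences passed the adjusted test.

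Hmox1, the inducible heme oxygenase that breaks down heme, has 2 probe sets that did not vary together. The brighter one, rc_AI179610_at, had 9.49, 9.61, 9.62, 9.62, 9.72 and 10.03 in 72NES, against 8.04, 9.39, 9.40, 9.45 and 9.47 in HC of cohort 1. All 6 72NES arrays lay above all 5 HC arrays, a separation shown by 1 of the 21 member probe sets and by 1.01% of all probe sets. The difference was 0.53 ± 0.20 (p = 0.0156, adjusted p = 0.928, limma). The lowest HC value is again array 3, and without it the difference was 0.26 ± 0.13. Blood markers summed to 8163 to 15893 in 24SD, 7865 to 14894 in 72SD, 6607 to 16226 in 24NES and 9629 to 15013 in 72NES of cohort 1. The HC arrays of cohort 1 had 15361 to 17968. In cohort 2 the medians went the other way, with 17526 in 24SD and 16087 in 72SD against 11976 in HC. The part of blood markers in the values of Hmox1 and Selenop was not tested. For SD over both cohorts the probe set differed by 0.073 ± 0.10 at 24 hours and 0.12 ± 0.095 at 72 hours, and by -0.030 ± 0.076 and 0.028 ± 0.072 without array 3.

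The dim probe set of Hmox1, J02722cds_at, had a geometric mean signal of 105 and lies below the median brightness of the array. In cohort 1 it ran from 6.99 to 7.70 with a median of 7.16 in 24SD and from 4.98 to 7.56 with a median of 6.46 in 24NES, against 5.49, 5.78, 6.06, 6.48 and 6.85 in HC. All 8 24SD arrays lay above all 5 HC arrays, a separation shown by 1 of 21 member probe sets and by 0.938% of all probe sets. The difference in cohort 1 alone was 1.13 ± 0.25 (p = 1.84e-04, adjusted p = 0.0764, limma) and in cohort 2 alone 0.0032 ± 0.29. The change in cohort 1 exceeded that in cohort 2 by 1.13 ± 0.42 at 24 hours and 0.45 ± 0.40 at 72 hours (p = 0.0315, adjusted p = 0.697, limma). Against 24NES, 24SD stood higher by 1.04 ± 0.26 (p = 3.71e-04, adjusted p = 0.203, limma), and the brighter probe set differed in the same comparison by 0.12 ± 0.14. The 24NES arrays spread widely and overlapped with 24SD.

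**Figure D3:**
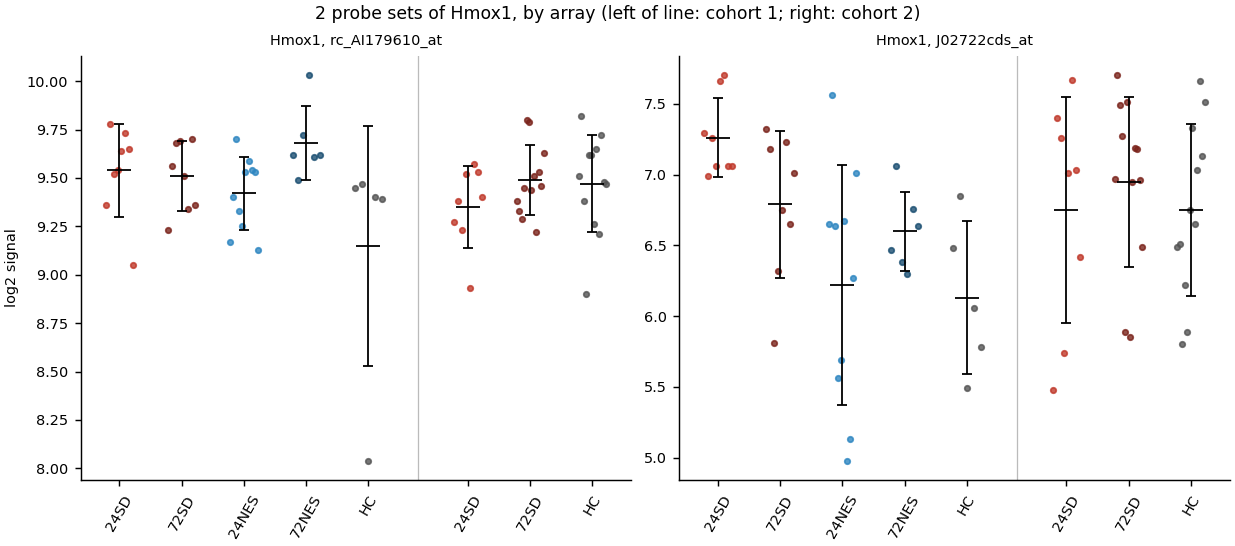
Log2 signal of the 2 Hmox1 probe sets on every array, by group, with cohort 1 left and cohort 2 right of the grey line (bars, mean ± SD). For J02722cds_at the 8 24SD arrays of cohort 1 (6.99 to 7.70) lie above the 5 HC arrays (5.49 to 6.85), while rc_AI179610_at shows 1 HC array at 8.04 below all others.

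Hmox2, the constitutive heme oxygenase found in neurons, also has 2 bright probe sets, whose differences had opposite signs in SD over both cohorts and the same sign in NES. J05405mRNA_s_at was higher in 24SD by 0.18 ± 0.069 (p = 0.0139, adjusted p = 0.217, limma), and 14 of 16 arrays lay above the HC mean of their cohort. U05013_at was lower in 24SD by -0.10 ± 0.050 (p = 0.0488, adjusted p = 0.336, limma), and 3 of 16 arrays lay above that mean. In 24NES, U05013_at ran from 10.38 to 10.88 with a median of 10.66, against 10.75, 10.93, 10.94, 10.95 and 11.09 in HC of cohort 1. None of the 10 reached the HC mean and 8 lay below every HC array, with a difference of -0.28 ± 0.098 (p = 0.00908, adjusted p = 0.270, limma). J05405mRNA_s_at had -0.018 ± 0.13 in 24NES and -0.096 ± 0.14 in 72NES, where U05013_at had -0.13 ± 0.11. In SD the U05013_at difference at 24 hours was -0.25 ± 0.10 in cohort 1 alone and -0.021 ± 0.054 in cohort 2 alone.

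Nqo1, a quinone reductase and a textbook target of Nrf2, had a mean difference above 0 at each duration on its bright probe set J02679_s_at, with wide error. It differed by 0.25 ± 0.13 for 24SD, 0.20 ± 0.13 for 72SD, 0.27 ± 0.22 for 24NES and 0.35 ± 0.24 for 72NES, with unadjusted p from 0.0646 to 0.236 (limma). In cohort 1 the 6 72NES arrays had 9.68, 9.76, 9.79, 9.98, 10.11 and 10.12, against 9.09, 9.43, 9.52, 9.82 and 9.95 in HC, so that the groups overlapped. Without HC array 6 of cohort 2, at 8.39, the 24SD difference was 0.18 ± 0.12. The dim probe set M58495mRNA_at differed by -0.081 ± 0.35 for 24SD. Between SD and NES the differences were -0.19 ± 0.19 at 24 hours and -0.19 ± 0.22 at 72 hours.

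The cohorts differed more than the treatments did. In cohort 2 against cohort 1, with treatment in the model, 10 of 21 member probe sets were called, against 50.4% of all probe sets, so that the members' share is that of the array (11 members and 56.2% of all without adjustment). Prdx6 (rc_AA892041_at) was higher in cohort 2 by 0.33 ± 0.055 (adjusted p = 2.06e-06, limma), both bright Gpx1 probe sets by 0.39 ± 0.077 and 0.33 ± 0.067, and both bright Cat probe sets by 0.54 ± 0.15 and 0.39 ± 0.088. Selenop was higher by 0.27 ± 0.081 (adjusted p = 0.00561, limma), and Sod3 (Z24721_at) was lower by -0.29 ± 0.066 (adjusted p = 2.29e-04, limma). Other probe sets of these genes did not all follow, since Prdx6 Y17295cds_s_at differed by 0.036 ± 0.045 and AF014009_at by -0.11 ± 0.052. The dim Cat probe set rc_AA926149_at went the other way from the bright ones, with an HC mean of 5.59 in cohort 2 and 6.95 in cohort 1. That the SD change differed between the cohorts was called for 0 of 21 members (0.0343% of all), with 3 at an unadjusted p under 0.05 (6.76% of all), namely Selenop and both Hmox1 probe sets.

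Probe sets of the same gene followed each other weakly from animal to animal. After removal of the mean of each group and cohort, 14 pairs of probe sets were compared over the 69 arrays, with permutation of arrays within the 8 groups by cohort (100000 draws, 2-sided, Benjamini-Hochberg over the 14 pairs). Prdx6 Y17295cds_s_at and AF014009_at had Pearson's r = 0.38 (permutation p = 0.00275, adjusted p = 0.0179) and Spearman's rho = 0.33 (permutation p = 0.00966, adjusted p = 0.0270). Without the 2 arrays farthest from the median of the pair's brighter probe set, r was 0.33. The 2 arrays left out for the other pairs were chosen in the same way. The 2 probe sets of Hmox1 had r = -0.032 (permutation p = 0.797, adjusted p = 0.805) and rho = -0.14 (permutation p = 0.263, adjusted p = 0.335), with r = -0.18 without 2 arrays. The 2 probe sets of Hmox2 had r = -0.35 (permutation p = 0.00862, adjusted p = 0.0233) and rho = -0.26 (permutation p = 0.0374, adjusted p = 0.0748), with r = -0.21 without 2 arrays, -0.31 in cohort 1 and -0.44 in cohort 2. Of the 14 pairs, 7 had an adjusted p under 0.05 by Pearson's r, 6 of them with r above 0, and no r exceeded 0.38. Several of the 14 pairs, that of Hmox1 among them, include a dim probe set with a geometric mean signal under 443.

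**Figure D4:**
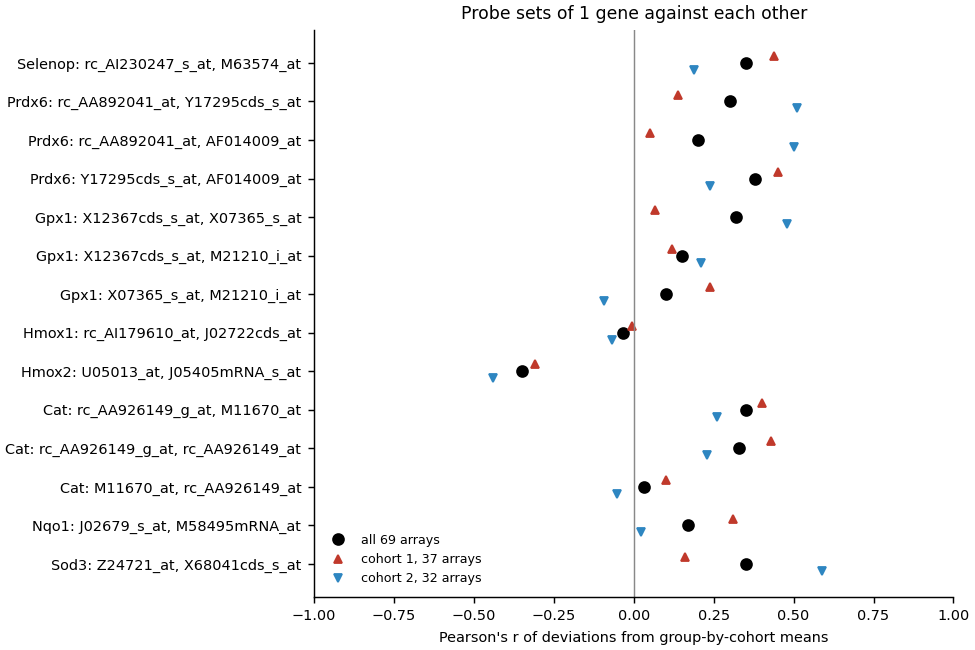
Pearson's r (horizontal axis) between probe sets of the same gene, computed on deviations from the group-by-cohort means; black points are all 69 arrays, triangles the cohorts. The pairs range from -0.35 (Hmox2) to 0.38 (Prdx6).

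Between genes, the 10 brightest probe sets gave 45 pairs with r between -0.47 and 0.40 and a median size of 0.13, as a description over 69 arrays that share scaling and RNA quality. Each was also set against 3680 probe sets of other genes with a geometric mean signal of at least 443, by the same deviations. Selenop was most like Rcn2 (r = 0.72), Cd24 (0.71) and Rpl39 (0.70), and Prdx6 most like Pdia3 (0.75). Cat was most like Canx (0.84), Ndufab1 (0.82) and Cyb5a (0.82), Gpx1 most like Ndufb6 (0.82), and Nqo1 most like Ndufv2 (0.80) and Gstm1 (0.79). In cohort 1 and cohort 2, r was 0.79 and 0.93 for Cat with Canx, and 0.60 and 0.87 for Gpx1 with Ndufb6. For Nqo1 with Ndufv2 it was 0.80 and 0.81. These r were not recomputed with single arrays left out. Txn2 was most like Calr (0.81), and Prdx1 most like Fryl (0.55). The closest to Hmox1 (rc_AI179610_at), Ctsh at 0.48, had 0.62 in cohort 1 and 0.12 in cohort 2.

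The partners of these enzymes in redox metabolism, 60 genes in 8 lists, were not called either (0 at an adjusted p under 0.05 in SD and in NES against HC, limma). In the glutathione system, 20 genes with 38 probe sets, 6 probe sets (15.8%) had an unadjusted p under 0.05 in SD, 4 higher and 2 lower. Of all 8740 probe sets, 10.3% had such a p in SD and 8.63% in NES. Gsto1, a glutathione transferase, had 0.25 ± 0.068 at 24 hours and 0.093 ± 0.064 at 72 hours of SD (AB008807_at, p = 0.00219, adjusted p = 0.208, limma). Gstp1, another transferase, had -0.23 ± 0.089 and -0.30 ± 0.084 on X02904cds_s_at (p = 0.00252, adjusted p = 0.227, limma) and -0.026 ± 0.12 and -0.068 ± 0.11 on its brighter probe set. Sod1, the cytosolic superoxide dismutase, had -0.16 ± 0.054 and -0.13 ± 0.051 in SD on M25157mRNA_i_at (p = 0.0109, adjusted p = 0.340, limma), but 0.037 ± 0.067 and -0.076 ± 0.068 at 24 hours on its other probe sets. Sephs2, which activates selenium for protein synthesis, had 0.21 ± 0.089 and 0.18 ± 0.083 in SD (p = 0.0387, adjusted p = 0.462, limma). In NES, Nfe2l2, which encodes Nrf2, had 0.55 ± 0.17 at 24 hours and 0.28 ± 0.19 at 72 hours on rc_AI177161_at (p = 0.0149, adjusted p = 0.443, limma) and 0.33 ± 0.21 and 0.29 ± 0.23 on rc_AI177161_g_at. The glutathione list had 3 such probe sets in NES. Of the 17 probe sets in the list of Nrf2 and its targets, 3 (17.6%) had such a p in SD, 1 higher and 2 lower. In NES 3 (17.6%) had such a p, all higher, where 431 of the 754 such probe sets on the whole array were higher. Of 24 probe sets of oxidant-producing enzymes, 19 were lower in SD and 20 in NES, where 4929 of all 8740 were lower in SD and 4439 in NES, with 4 at an unadjusted p under 0.05 in SD and 0 in NES. The other lists had 0 or 1 such probe set each in SD and in NES.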

How the data were processed

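RNA from the CA1 blocks of 69 rats was hybridised to Affymetrix arrays, 1 for each rat. The authors made the intensity values with MAS5 (version not given in the sources used here) as 1 signal per probe set, deposited on a linear scale for 8799 probe sets, 59 of them controls. Here signals were set to at least 1 and log2 transformed, and all 8740 other probe sets were tested, so that every member probe set was kept. Probe sets were named from the series' annotation. Groups came from the sample labels. Moderated tests used limma 3.58.1 in R 4.3.3 (lmFit, eBayes): SD against HC over 53 arrays with cohort as a term, NES against HC over 21 arrays of cohort 1, and SD against NES over the 37 arrays of cohort 1. Adjustment followed Benjamini-Hochberg across the 8740 probe sets, with calls at an adjusted p under 0.05. Probe sets above the median brightness had a geometric mean signal of at least 443, and 15 of the 21 member probe sets, at least 1 for each gene, lay there. Every member probe set was tested and named by its gene list, and other genes were those with the smallest p in a list or the 3 most alike. The members and lists were chosen with earlier results of these data known. The fits were tested on simulated data. Alternatives were the upper 50% by brightness with 1 probe set for each gene, a floor of 50, median or quantile scaling, each cohort alone, cohort left out of the model, robust eBayes with an intensity trend, the methods' test on standardized signals, run once on every value and once after dropping those more than 2 SD away from the mean of their group, and single arrays left out. The number of arrays limits the precision, and detection calls were not used here. Correlations were computed in Python 3.11.15 with numpy 2.4.6 and pandas 2.3.3, and figures drawn with matplotlib 3.10.9.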

Additional observations from a re-analysis of the deposited data

Results flagged for a closer look

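A single array stood apart from the rest of its group, by Dixon's criterion, in 14 of 126 sets of values. Each set was 1 probe set in 1 group of 4 to 10 arrays. Chance gives about 1 in 20 for independent sets, but these sets share arrays, and several probe sets belong to the same gene. For Selenop (rc_AI230247_s_at) the arrays that stood apart were 24SD array 30 of cohort 2 at 12.88 (nearest 13.26) and HC array 3 of cohort 1 at 12.01 (nearest 12.62). Both had a GAPDH ratio of 1.18. HC array 3 was also the lowest for Hmox1 (rc_AI179610_at, 8.04, nearest 9.39) and for the dim Nqo1 probe set M58495mRNA_at (4.82, nearest 6.68). Array 24 of 24SD in cohort 1 was the lowest for Prdx6 Y17295cds_s_at (11.60) and for Txn2 (12.41). Array 58 of 24NES was the lowest for Txn2 (12.01) and the highest for Sod3 X68041cds_s_at (7.77). It also had the highest sum of pyramidal cell markers of the 69 arrays (83001). In 72NES, array 70 was the highest for Sod3 X68041cds_s_at (7.55). In 24NES, array 60 was the lowest for Prdx6 Y17295cds_s_at (11.57) and array 61 the lowest for Gpx1 X07365_s_at (10.83). In 72SD of cohort 1, array 42 was the lowest for Gpx1 X12367cds_s_at (11.54), array 41 the lowest for the dim Selenop probe set M63574_at (3.85) and array 37 the lowest for the dim Cat probe set rc_AA926149_at (4.01).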

How the results depend on the processing

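In all, 164 counts of called member probe sets were recomputed and 163 stayed within 1.5 times of the reported count. For every comparison but cohort 2 against cohort 1 the reported count was 0, so there it means only that 0 were called again. The count that moved was that of cohort 2 against cohort 1. It had 5 called, against 10, among the upper 50% by brightness with 1 probe set for each gene, where fewer probe sets are tested. Of 300 recomputed mean changes of a gene's brightest probe set over both durations, 12 changed sign, in 4 genes, all of small changes that were not called. The 300 leave out the methods' test on standardized signals, which entered only the counts. For SD against HC that test called 172 of all 8740 probe sets after values were dropped and 14 on every value, against 10 in the main fit. Prdx1 in SD was -0.056 in cohort 2 alone, -0.0010 without HC array 14 of cohort 2, and between -0.013 and -0.0039 without HC array 1, 2 or 4 of cohort 1, and single arrays left out gave -0.013 to 0.019. Hmox1 in SD was -0.050 in cohort 2 alone and -0.00095 without HC array 3, with 0.12 the highest value when an array was left out. Sod3 was -0.096 for SD in cohort 1 alone and 0.065 for NES without HC array 2, with -0.12 the lowest value when an array was left out. Txn2 in NES was -0.11 without HC array 2, -0.031 without array 3, and -0.026 without the 3 arrays of highest GAPDH ratio, with 0.14 the highest value when an array was left out. The cause was not tested. Selenop ranged from 0.065 to 0.56 in SD and from 0.30 to 0.49 in NES, with adjusted p from 0.239 to 1.00 and from 0.218 to 0.552 (limma). Leaving out the 3 arrays of highest GAPDH ratio together, 24SD array 32, or HC arrays 6 and 14 of cohort 2 was chosen after seeing the data. No paired analysis was possible because the animals' numbers are unique and groups share none.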
